A study of Mus musculus with 20 samples.

Results

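The comparison set blood taken 15 days after tumour cell inoculation against blood taken on day 0 from the same 4 mice. The means compared come from 8 of the 20 arrays of the series, the 4 titled day 15 Blood and the 4 titled day 0 Blood. These are matched by the mouse numbers 305, 310, 315 and 320. The standard errors and p-values use the spread of all 20 arrays. On day 15 the mice, female C57Bl/6 animals, had carried a subcutaneous inoculum of 10000000 Hepa1-6 cells, a cultured mouse hepatoma line, for 15 days. On day 0 the same animals had not yet been inoculated, per the treatment protocol, although the tissue label of every sample in the series names blood with Hepa1-6 cells. The other 12 arrays are bleeds of these mice on days 10, 20 and 25. No uninoculated mouse bled on day 15 was analysed here, so the tumour, the time and the earlier bleeds cannot be told apart. Every array held the mouse sample in Cy5 and 1 common RNA, blood of untreated female C57Bl/6 mice, in Cy3, on a whole mouse genome design of Agilent.

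Whole blood RNA is a mixture. Most of it comes from red cells and reticulocytes, young red cells that still hold RNA while they clear their mitochondria and ribosomes. The rest comes mainly from neutrophils, monocytes, B cells, T cells, natural killer cells and platelets. Neutrophils are short-lived phagocytes whose cytoplasm is filled with the calcium-binding proteins S100a8 and S100a9, and growing tumours are known to alter the release of myeloid cells from bone marrow in mice. In bulk blood, fewer cells of a type and less RNA per cell cannot be told apart.

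All values below are log2 ratios of Cy5 over Cy3 after loess normalization, unless another scale is named. Loess sets the typical ratio at each brightness to 0 on each array, so a value says where a gene stood against genes of like brightness on that array. A change is the day 15 mean minus the day 0 mean, with its standard error (SE), and a gene was called when limma's adjusted p over all 15155 genes measured was under 0.05. Values per array are given in the order of mice 305, 310, 315 and 320, and a gene has 4 values a day where nothing else is said.

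The 2 sets of arrays differed in ways that were not tested for their part in the results. The 4 day 15 arrays shared 1 slide and 1 scan, and the 4 day 0 arrays shared another slide and scan, so slide and day cannot be told apart, and the spot grid of the day 15 slide alone in the series came from a separate grid file. The median Cy3 intensity above local background, which measures the same reference RNA on every array, was 7.82 to 10.2 on the day 15 arrays and 79.6 to 110 on the day 0 arrays. Spots with no target (negative controls) stood at 2.57 to 4.24 in Cy5 on day 15 and at 24.7 to 33.4 on day 0. The day 15 arrays were close to each other, with a mean correlation of 0.767 to 0.832 with the other arrays of their day, while on day 0 it was 0.410 to 0.578 and lowest in mouse 320. The RNA was that of blood: the probe of the haemoglobin gene Hba-a1 and that of S100a9 were well above background on all 8 arrays.

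Day 15 blood had 395 genes above day 0 and 777 below, which is 2.61% and 5.13% of the 15155 genes, or 7.73% in all. Of the 1172 genes called, 1146 moved in 1 direction in all mice with values on both days, and in 963 the values of the days did not overlap. Both counts describe genes chosen by this same contrast and support nothing about it. Over all genes, 8.54% lay wholly above day 0 at day 15 and 14.6% wholly below. Most changes were small. The median change was 0.71 among the higher genes and -0.39 among the lower ones, and 53 genes were higher and 19 lower by 2-fold or more. The calls lay among the bright probes. Among 4 equal classes of brightness, the brightest held 374 of the higher and 698 of the lower calls, and the dimmest held 0 and 1. In the brightest class 9.87% of genes were higher and 18.4% lower, with a median change of -0.11. Lists below are set beside all genes, although most genes named lie in that class. A list of bright genes with shares and a median near these does not stand apart from its brightness. Without adjustment, 2638 genes had p under 0.05.

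**Figure D1:**
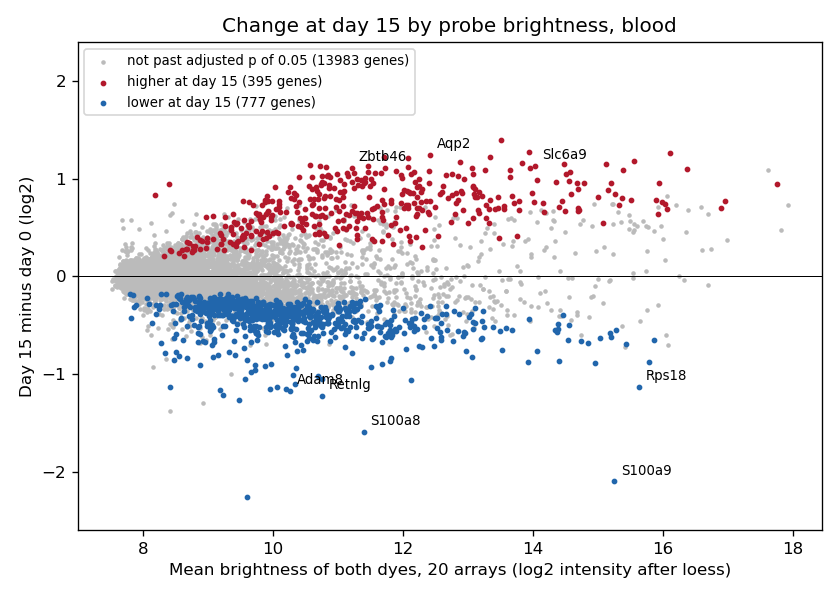
Change of each gene (log2, day 15 minus day 0, vertical axis) against its mean brightness in both dyes over 20 arrays (log2 intensity, horizontal axis). Red points are the 395 genes higher at day 15, blue points the 777 lower and grey points the 13983 not called; called genes are few at low brightness, and S100a9 and S100a8 lie below the other bright genes.

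The sign of a change depended on the normalization. When each array was centred on the median of all its spots in place of loess, the median change over all genes became -0.35, that of the brightest class became -1.23, and 393 of the 395 higher genes had a change below 0. That centring moved the bright genes down together, so this count restates the shift. The same shift kept the lower genes below 0, so their sign was not put to the test there. On that scale, 394 of the 395 higher genes were above the median of their own brightness class. Of the 777 lower genes, 750 were below theirs. Loess already sets each gene against genes of like brightness, so these counts largely restate the choice of genes and support nothing about it. Higher here means higher than other bright genes, and for the higher genes no absolute direction is given. In another setting the Cy5 intensity was used alone, without the reference channel, and given the same distribution on every array (quantile normalization). There, 13 of the higher and 7 of the lower genes turned their sign. With the scanner's log ratio, which had a median of 0 on every array, 0 of the higher and 6 of the lower genes did. An equal distribution removes any shift shared by all genes of an array, so neither setting gives an absolute direction. Called in every 1 of the 8 other normalizations were 0 higher and 8 lower genes, namely S100a9, S100a8, Cd300lf, Adam8, Wfdc21, Mmp8, Gsdme and BC089618, the last 3 named after their values were seen. All 8 were also called when any 1 of the 8 arrays was left out.

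**Figure D2:**
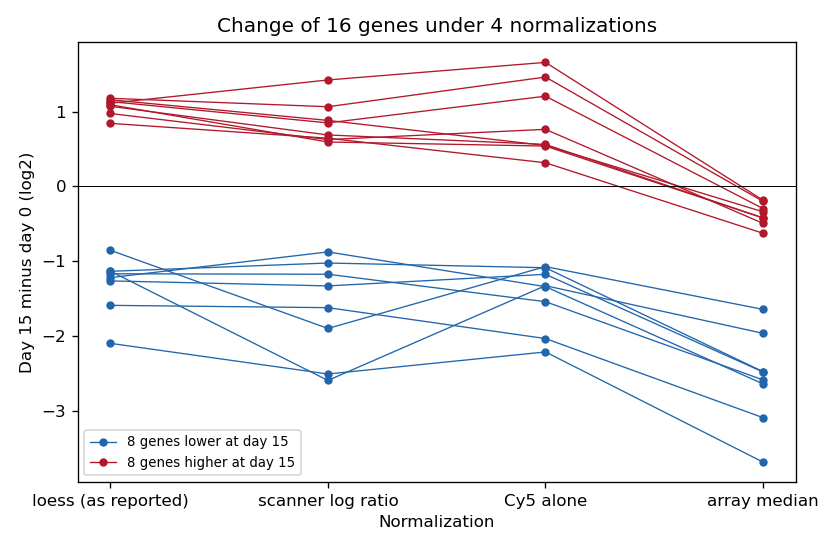
Change at day 15 (log2, vertical axis) of 8 lower genes (blue) and 8 higher genes (red), joined across 4 ways of normalizing the arrays (horizontal axis). The blue lines stay below 0 in all 4, and the red lines are above 0 in 3 and below 0 with the array median. The array median moved bright genes down together, so the sign of the blue lines was not tested there. The blue genes S100a9, S100a8, Adam8, Cd300lf, Wfdc21 and Mmp8 are among those called in every normalization.

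Genes of mature neutrophils were lower at day 15. Of 22 marker genes listed, 21 were measured, 14 were lower and 0 higher, with a median change of -0.67, against -0.016 over all genes. The 7 not called also had changes below 0. The list's median was below 0 in every mouse, at -0.53, -0.84, -0.38 and -0.91. The count of lower members stayed between 12 and 15 when any 1 array was left out. With the array median in place of loess, 4 members were called. The list's median was then -1.65, or -1.29 relative to that of all genes. On that scale the brightest class of genes had a median of -1.23 and the next class -0.59. The -1.29 therefore includes the shift that bright genes shared.

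S100a9, a subunit of calprotectin, had the largest fall of the genes named by rule. It stood at -0.66, -0.81, -0.79 and -0.076 at day 15 and at 0.59, 2.05, 1.69 and 1.72 at day 0. The groups did not overlap, and the day 0 value of mouse 305 was the lowest of that day (-2.10 ± 0.27, adjusted p = 0.000317). Its partner S100a8 stood at -0.078, -0.50, -0.097 and -0.12 at day 15 and at 0.67, 1.52, 1.66 and 1.72 at day 0 (-1.59 ± 0.23, adjusted p = 0.000563). Mouse 310 was below the other mice at day 15 and mouse 305 below the others at day 0. Retnlg, a secreted resistin-like protein of neutrophils, stood at 0.46, 0.23, 0.21 and 0.81 at day 15, against 1.39, 1.53, 1.79 and 1.89 at day 0 (-1.22 ± 0.17, adjusted p = 0.00054), again with no overlap.

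Adam8, a cell surface metalloprotease of leukocytes, stood at -0.0061, -0.46, -0.12 and -0.11 at day 15 and at 0.85, 1.14, 0.85 and 1.13 at day 0 (-1.17 ± 0.13, adjusted p = 0.000244), and the spread within each day was small beside the change. Mmp8, the neutrophil collagenase, averaged -0.033 ± 0.063 at day 15 and 0.82 ± 0.36 at day 0 (SD, n = 4 each; -0.86 ± 0.17, adjusted p = 0.00358). Lrg1, a secreted glycoprotein of neutrophil granules and of liver, averaged -0.19 ± 0.21 at day 15 and 0.98 ± 0.30 at day 0 (-1.16 ± 0.28, adjusted p = 0.0149). Cebpd, a transcription factor of myeloid cells, averaged -0.22 ± 0.20 at day 15 and 0.94 ± 0.35 at day 0 (-1.15 ± 0.22, adjusted p = 0.00384). In these genes, too, every day 15 value lay below every day 0 value. The call of Lrg1 was lost without the day 0 array of mouse 310, at adjusted p = 0.0518.

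**Figure D3:**
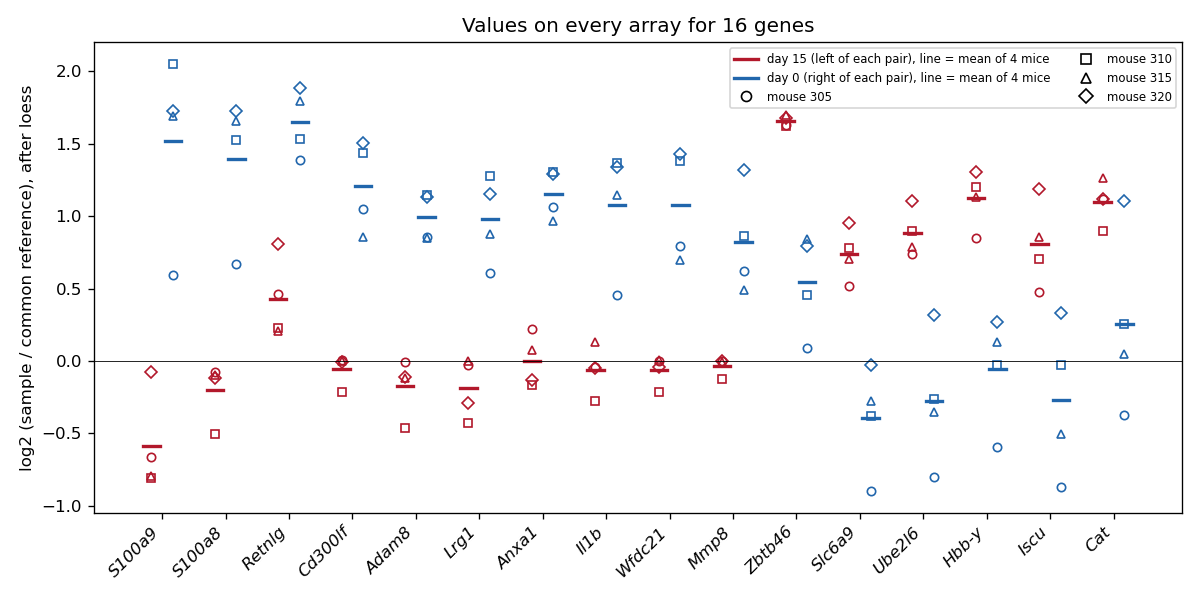
Log2 ratio of sample over common reference (vertical axis) on each array for 16 genes, with day 15 in red at the left of each pair and day 0 in blue at the right; symbols mark the mouse and lines the mean of 4 mice. In the 10 genes from S100a9 to Mmp8 the day 15 values all lie below the day 0 values, and in the others the day 15 values lie above them, except that in Cat the day 0 value of mouse 320 lies among the day 15 values.

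The 250 bases before the start of 4 of the genes called in every normalization, both calprotectin genes and both metalloproteases (RefSeq, GRCm38.p6), are shown because C/EBP factors, Cebpd among them, are known regulators of myeloid genes. Capitals mark a match to the C/EBP letters TTGCNNAA, searched on both strands, and each sequence is written 5′ to 3′ on the strand of its gene.
S100a9: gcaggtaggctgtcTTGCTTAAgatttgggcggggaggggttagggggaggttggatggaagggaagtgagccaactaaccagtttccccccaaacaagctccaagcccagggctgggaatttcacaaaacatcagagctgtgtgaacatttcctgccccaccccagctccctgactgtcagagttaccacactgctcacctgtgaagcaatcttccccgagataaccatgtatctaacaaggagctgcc
S100a8: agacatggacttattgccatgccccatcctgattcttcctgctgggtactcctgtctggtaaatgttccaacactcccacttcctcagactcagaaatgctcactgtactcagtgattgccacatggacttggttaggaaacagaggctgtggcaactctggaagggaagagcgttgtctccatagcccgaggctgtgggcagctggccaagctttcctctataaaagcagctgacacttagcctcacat
Adam8: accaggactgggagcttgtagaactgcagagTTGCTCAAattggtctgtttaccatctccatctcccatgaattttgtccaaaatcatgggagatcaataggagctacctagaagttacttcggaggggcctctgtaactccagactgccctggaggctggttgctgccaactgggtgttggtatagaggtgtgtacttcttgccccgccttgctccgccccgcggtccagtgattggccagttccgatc
Mmp8: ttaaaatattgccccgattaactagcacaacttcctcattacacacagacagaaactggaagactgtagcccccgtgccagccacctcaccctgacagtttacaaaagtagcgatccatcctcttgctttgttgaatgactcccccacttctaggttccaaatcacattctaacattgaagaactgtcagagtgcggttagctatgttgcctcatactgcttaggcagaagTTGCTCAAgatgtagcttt
The windows are chr3:90695722-90695971 on the minus strand, chr3:90668821-90669070 on the plus strand, chr7:139992563-139992812 on the minus strand and chr9:7558179-7558428 on the plus strand. S100a9, Adam8 and Mmp8 each held 1 match and S100a8 held 0. Over the lower genes, 60 of 605 lower genes with a promoter entry held one (9.92%), against 24 of 257 higher genes (9.34%), 7.80% of the 10136 genes measured and 9.55% of all 27025 promoters. The erythroid GATA letters AGATAA were in 9.34% of the promoters of higher genes, 7.11% of those of lower genes, 6.71% of those of the genes measured and 10.25% of all promoters, with no test of these shares.

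Granule genes that neutrophil precursors make in the marrow gave little. Of 7 members measured out of 12, 1 was lower and 0 higher, with a median of -0.0089. The lower one was Chil3, a chitinase-like lectin of myeloid cells, which averaged -0.51 ± 0.16 at day 15 and 0.27 ± 0.27 at day 0 (-0.79 ± 0.22, adjusted p = 0.0306), and which lost its call in 6 of the 8 fits that left out 1 array.

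Other genes of myeloid cells were also among the lowest. Cd300lf, an inhibitory receptor of myeloid cells, stood at 0.0045, -0.21, -0.0024 and -0.0091 at day 15 and at 1.05, 1.44, 0.85 and 1.502 at day 0 (-1.26 ± 0.19, adjusted p = 0.000804), while its other probe gave -0.19. Wfdc21, a small secreted protein related to protease inhibitors, averaged -0.061 ± 0.10 at day 15 and 1.07 ± 0.38 at day 0 (-1.13 ± 0.16, adjusted p = 0.000513). Anxa1, a lipid-binding protein that restrains neutrophil entry into tissue, stood at 0.22, -0.17, 0.077 and -0.13 at day 15, against 1.06, 1.30, 0.96 and 1.29 at day 0 (-1.15 ± 0.27, adjusted p = 0.013). S100 and annexin genes were 0 higher and 4 lower of 16 measured, with a median of -0.15. The fourth lower member beside S100a8, S100a9 and Anxa1 was S100a6, outside the rule for names, at -0.87 ± 0.23, adjusted p = 0.0267.

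Monocyte markers were 0 higher and 2 lower of 15 measured, with a median of -0.12. The number lower was 4 without the day 0 array of mouse 320, 2 without that of mouse 315 and 1 without any other. The lower ones, both outside the range of day 0, were Treml4, a receptor of the patrolling subset, at -0.0058, 0.16, -0.069 and 0.10 on day 15 and 1.70, 1.05, 0.73 and 0.53 on day 0 (-0.96 ± 0.21, adjusted p = 0.00853), and Adgre1, the F4/80 antigen (-0.52 ± 0.15, adjusted p = 0.0357). The call of Adgre1 was lost in 6 of the 8 fits that left out 1 array. Phagocyte receptors and oxidase subunits were 0 higher and 6 lower of 16, with a median of -0.24. They included Tyrobp, a signalling adaptor (-0.67 ± 0.16, adjusted p = 0.0163), and Sirpa, the receptor of the signal that spares cells from engulfment (-0.51 ± 0.12, adjusted p = 0.0109). 2 other probes of Sirpa gave -0.080 and -0.018. The dendritic cell list was 1 higher and 0 lower of 7, and eosinophil and basophil genes 0 and 0 of 9.

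In the interleukin 1 and NF-kB list, 4 of 18 measured were lower and 0 higher, with a median of -0.18. Over all genes 5.13% were lower, and in the brightest class 18.4%, with a median of -0.11. Il1b, Nfkbia and Birc3 lie in that class. The signalling lists that follow are to be read beside the same shares. Il1b, the precursor of a fever-inducing cytokine, stood at -0.041, -0.28, 0.13 and -0.050 at day 15 and at 0.46, 1.37, 1.14 and 1.34 at day 0 (-1.14 ± 0.26, adjusted p = 0.011). Nfkbia, the inhibitor that holds NF-kB in the cytoplasm and is itself an NF-kB target, averaged -0.66 ± 0.22 at day 15 and -0.0019 ± 0.17 at day 0 (-0.66 ± 0.13, adjusted p = 0.00322), and Birc3, a ubiquitin ligase of the same pathway, changed by -0.44 ± 0.083, adjusted p = 0.00319. Il1b had the larger change, and the groups of all 3 did not overlap.

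The JAK, STAT and SOCS list was 0 higher and 6 lower of 22, with a median of -0.15. Socs3, the feedback inhibitor that STAT3 induces, averaged -0.17 ± 0.12 at day 15 and 0.63 ± 0.30 at day 0 (-0.80 ± 0.14, adjusted p = 0.00159). Csf2rb, the shared chain of the receptors for GM-CSF and interleukins of the same family, changed by -0.77 ± 0.17, adjusted p = 0.00912, but its other probe gave 0.38. Stat5b, a transcription factor downstream of them, changed by -0.55 ± 0.078, adjusted p = 0.000553, with -0.016 at its other probe. Toll-like receptor genes were 1 higher and 3 lower of 15, and 0 or 1 were lower without any 1 array other than that of mouse 315 on day 0. Myd88, their shared adaptor, was lower (-0.33 ± 0.086, adjusted p = 0.023). Tlr9, a sensor of unmethylated DNA, was at 0.10, -0.087, -0.061 and -0.11 on day 15 and -0.49, -0.65, -0.52 and -0.76 on day 0 (0.57 ± 0.093, adjusted p = 0.00131), and was below 0 with the array median.

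Among immediate early genes, 1 of 19 was higher and 4 were lower, with a median of -0.077. Lower were 2 without the day 0 array of mouse 310 or the day 15 array of mouse 320 and 7 without the day 0 array of mouse 320. Higher were 0 without the day 0 array of mouse 305 or 315 or the day 15 array of mouse 310, 315 or 320. Dusp1, a phosphatase that ends MAP kinase signals, changed by -0.77 ± 0.19, adjusted p = 0.0155, and mouse 310 alone was far below 0 at day 15. Ier5 changed by -0.48 ± 0.11, adjusted p = 0.00888. Klf2, a factor of quiescent T cells and of vessel walls, had a change of 0.81 at its brighter probe and of -0.66 at its other, and the first was also below 0 with the array median, so its direction was not settled. In the BCL2 family, 1 of 12 was higher and 3 lower, and 0 were higher without the day 0 array of mouse 305, 310 or 315 or the day 15 array of mouse 310, 315 or 320. Bcl2, which protects lymphocytes from apoptosis, stood at -0.013, 0.053, -0.024 and -0.049 at day 15 and at 0.76, 0.64, 0.55 and 0.65 at day 0 (-0.66 ± 0.084, adjusted p = 0.0003), although its 2 other probes gave -0.026 and -0.024. Mcl1, a survival protein that neutrophils depend on, changed by -0.54 ± 0.098, adjusted p = 0.00268, and its other probe gave -0.63. Bcl2l1, which protects maturing red cells, had a change of 0.68 after loess and below 0 with the array median.

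**Figure D4:**
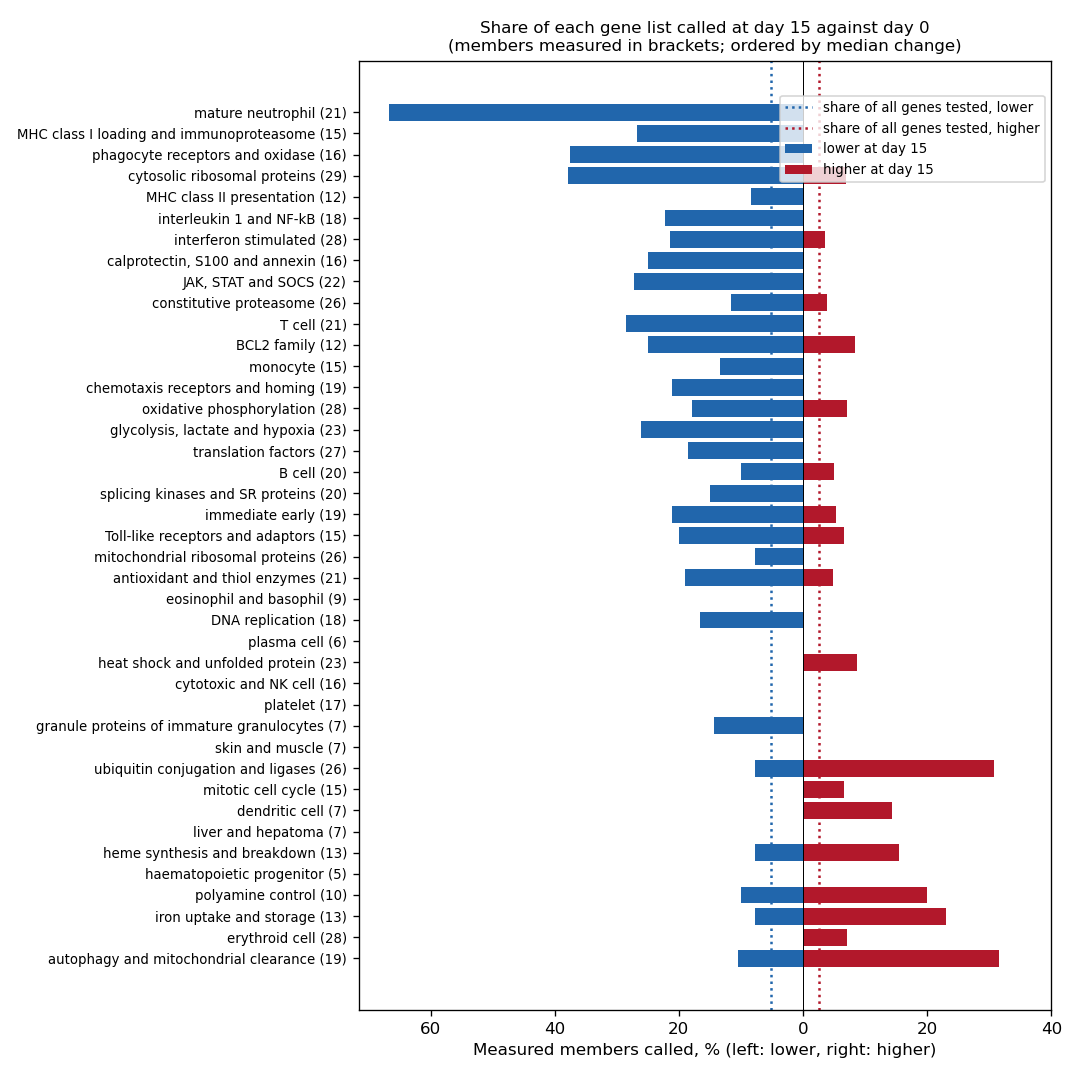
Share of the measured members of each gene list that was called (horizontal axis, %), lower at day 15 in blue to the left and higher in red to the right, for 41 lists with their number of measured members in brackets. Dotted lines mark the shares over all 15155 genes, 5.13% lower and 2.61% higher. In the brightest of 4 classes of genes these shares were 18.4% and 9.87%. The mature neutrophil list has the longest blue bar, at 14 of 21.

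Lymphocyte genes gave calls in the T cell and B cell lists. Of 21 T cell genes measured, 6 were lower and 0 higher, with a median of -0.12, and 2 to 5 were lower when any 1 array was left out (2 without the day 0 array of mouse 315 or the day 15 array of mouse 320, 3 without the day 0 array of mouse 305 or the day 15 array of mouse 315). Il7r, the receptor for a survival cytokine of resting T cells, stood at -0.17, -0.17, -0.14 and -0.36 at day 15 and at 0.072, 0.27, 0.64 and 0.42 at day 0 (-0.56 ± 0.13, adjusted p = 0.0117), but its other probe gave 0.034. Cd8b1, a chain of the CD8 co-receptor, changed by -0.53 ± 0.14, adjusted p = 0.0279 with overlapping groups. The fixed marker Cd8a did not pass the test (-0.12 ± 0.082, adjusted p = 0.528), nor did Cd3e, whose change of 0.15 had an SE of 0.76. That SE pools the spread of all 5 days. Cd3e had an SD of 0.20 at day 15 and 0.099 at day 0, and its mean on day 20 was 1.77.

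Of 20 B cell genes, 1 was higher and 2 were lower, with a median of -0.086. Lower were 4 without the day 0 array of mouse 320, 2 without the day 15 array of mouse 310 and 1 without any other, and 0 were higher without the day 0 array of mouse 305 or 315 or the day 15 array of mouse 320. Pou2af1, a coactivator of immunoglobulin genes, averaged -0.73 ± 0.14 at day 15 and -0.11 ± 0.28 at day 0 (-0.62 ± 0.11, adjusted p = 0.00183). Blnk, an adaptor of the B cell receptor, changed by -0.57 ± 0.17, adjusted p = 0.0459 with overlapping groups. The higher gene was Cd24a, which red cells and neutrophils carry as well (0.90 ± 0.22, adjusted p = 0.0164), and it too turned below 0 with the array median. Cd79a, a chain of the B cell receptor, changed by 0.035 ± 0.073, adjusted p = 0.95, and Ms4a1 (CD20) by -0.36 ± 0.16, adjusted p = 0.249. Cytotoxic and natural killer genes were 0 higher and 0 lower of 16, with Nkg7 at -0.25 ± 0.23, adjusted p = 0.764, and plasma cell genes 0 and 0 of 6.

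Antigen presentation genes gave lower calls only. Over all genes 5.13% were lower, and in the brightest class 18.4%. Of 15 class I loading and immunoproteasome genes, 4 were lower and 0 higher, with a median of -0.33, the second lowest of the lists, and 8 were lower without the day 0 array of mouse 320 and 3 or 4 without any other. Tapbp, which holds class I molecules at the peptide transporter, averaged -0.27 ± 0.12 at day 15 and 0.22 ± 0.21 at day 0 (-0.49 ± 0.094, adjusted p = 0.00416), while its other probe gave 0.025. Psmb9, an immunoproteasome subunit, changed by -0.54 ± 0.13, adjusted p = 0.0119, and H2-K1, a class I heavy chain that shares sequence with other H2 genes, by -0.54 ± 0.14, adjusted p = 0.023. In both, the day 0 value of mouse 320 was the lowest of its day and the groups overlapped. The list's median by mouse was -0.45, -0.23, -0.48 and -0.017. In the class II list it was -0.34, -0.042, -0.36 and 0.0030, so mouse 320 had hardly any fall in either. Class II genes were 0 higher and 1 lower of 12, with H2-Oa, an inhibitor of peptide exchange, at -0.40 ± 0.082, adjusted p = 0.00527, and 4 were lower without the day 0 array of mouse 320 and 2 without the day 15 array of mouse 305 or 310.

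Interferon-stimulated genes did not move as 1 group: 1 of 28 was higher and 6 were lower, with a median of -0.18, and 2 were lower without the day 15 array of mouse 320. Without the day 15 array of mouse 310 or 315, or the day 0 array of mouse 305, 3 were lower, and without the day 0 array of mouse 310, 4. Ifitm1, a membrane protein against virus entry, stood at 0.21, 0.042, 0.14 and 0.30 at day 15 and at 1.31, 1.72, 0.87 and 1.63 at day 0 (-1.21 ± 0.32, adjusted p = 0.0256), and its call was lost in 5 of the 8 fits that left out 1 array. Rtp4 averaged 0.27 ± 0.20 at day 15 and 0.94 ± 0.14 at day 0 (-0.67 ± 0.15, adjusted p = 0.011). Isg15, a ubiquitin-like modifier, stood at 0.68, 1.04, 1.25 and 0.62 at day 15 and at -0.50, -0.22, -0.30 and 0.71 at day 0 (0.97 ± 0.24, adjusted p = 0.0163), and with the array median it was below 0. The day 0 value of mouse 320 was above the lowest day 15 values in Isg15. Ube2l6, the enzyme that carries Isg15 to its targets, is given with the ubiquitin genes.

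Red cell genes gave few calls. Of 28 erythroid genes measured, 2 were higher and 0 lower, a share of calls near that of all genes, with a median of 0.10. The list's median by mouse was 0.26, 0.34, 0.17 and -0.13. The higher ones, which were below 0 with the array median, were Tspo2, a membrane protein of late erythroblasts (0.97 ± 0.23, adjusted p = 0.0113), and Epb41, a protein of the membrane skeleton (0.84 ± 0.25, adjusted p = 0.0479), and in both the day 0 value of mouse 320 overlapped the day 15 values. Slc4a1, the anion exchanger of the red cell membrane, did not pass the test (0.68 ± 0.27, adjusted p = 0.167), and stood at 0.41, 0.64, 0.87 and 1.23 at day 15, against -0.48, 0.30, -0.39 and 1.01 at day 0. Hba-a1 had values in mice 305, 310 and 315 at day 15 (1.26, 1.49 and 1.03) and in mice 305, 315 and 320 at day 0 (-0.36, 0.33 and 0.54), with a change of 1.09 ± 0.39, adjusted p = 0.121, and its Cy5 signal was saturated on 4 arrays. Hbb-y, an embryonic beta-like globin, stood at 0.85, 1.20, 1.13 and 1.30 at day 15 and at -0.59, -0.026, 0.13 and 0.27 at day 0 (1.18 ± 0.19, adjusted p = 0.0013), but it was below 0 with the array median, and globin probes may read near-identical copies. Without the day 0 array of mouse 320, 8 erythroid genes were higher, and without any other 1 of the 8 arrays 1 or 2 were.

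Transport, heme and iron genes had higher members after loess, each of which was below 0 with the array median. The medians of the heme and iron lists were 0.037 and 0.065, and the cells that held these RNAs were not told apart. Slc6a9, the glycine carrier that feeds heme synthesis, stood at 0.52, 0.78, 0.70 and 0.95 at day 15, against -0.90, -0.38, -0.27 and -0.025 at day 0 (1.13 ± 0.16, adjusted p = 0.00054). Every mouse was higher and the groups did not overlap. The heme list was 2 higher and 1 lower of 13, with Blvrb, which reduces biliverdin, at 0.71 ± 0.18, adjusted p = 0.023 and Ppox, a mitochondrial enzyme of heme synthesis, at 0.43 ± 0.13, adjusted p = 0.0451, and these lost the call in 5 and 6 of the 8 fits that left out 1 array. In that list 0 were lower without the day 0 array of mouse 305 or the day 15 array of mouse 320. The iron list was 3 higher and 1 lower of 13, with 1 higher without the day 0 array of mouse 315 or the day 15 array of mouse 320 and 0 lower without the day 0 array of mouse 310. Iscu, the scaffold of iron-sulfur clusters, stood at 0.48, 0.70, 0.86 and 1.18 at day 15 and at -0.87, -0.027, -0.50 and 0.33 at day 0 (1.07 ± 0.22, adjusted p = 0.00636). Glrx5, which acts in the same pathway and was not measured in mouse 305 on day 0, changed by 0.77 ± 0.20, adjusted p = 0.0207, and Ftl1, the ferritin light chain, by 0.79 ± 0.21, adjusted p = 0.0263.

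The autophagy and mitochondrial clearance list had 6 higher and 2 lower of 19, beside 2.61% higher and 5.13% lower over all genes. Gabarapl2, which coats autophagosomes, stood at 0.65, 0.94, 0.84 and 1.40 at day 15 and at -0.77, 0.20, -0.16 and 0.21 at day 0 (1.09 ± 0.21, adjusted p = 0.00335), and Map1lc3b, of the same family, changed by 0.88 ± 0.19, adjusted p = 0.00679, both below 0 with the array median. Their other probes gave 0.041 and -0.17, so the change was seen at 1 probe of each. The number of higher members was 3 without the day 0 array of mouse 305 and 4 to 8 without any other. The number lower was 0 without the day 0 array of mouse 310 or the day 15 array of mouse 320, 2 without the day 0 array of mouse 315 or the day 15 array of mouse 310, and 1 without any other. In the polyamine list 2 of 10 were higher and 1 lower, and 0 were lower without the day 0 array of mouse 305 or 310 or any 1 of the day 15 arrays. Oaz1, antizyme, which marks the first enzyme of polyamine synthesis for breakdown, was measured in 3 mice on day 15, at 0.72, 0.52 and 1.26 in mice 310, 315 and 320, and stood at -0.77, 0.12, -0.42 and -0.0077 on day 0 (1.10 ± 0.21, adjusted p = 0.00319), with 0.95 at its other probe. With the Cy5 channel alone it was at -0.037, and with the array median it was below 0. Smox, spermine oxidase, changed by 1.07 ± 0.17, adjusted p = 0.00098, with -0.014 at its other probe and a value below 0 with the array median.

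Of 26 ubiquitin conjugation and ligase genes, 8 were higher and 2 lower, with a list median of 0.0041. The higher ones shared the limit of all higher genes, being below 0 with the array median where named. Ube2l6 stood at 0.74, 0.90, 0.78 and 1.11 at day 15 and at -0.80, -0.26, -0.35 and 0.31 at day 0 (1.16 ± 0.19, adjusted p = 0.00115). Ube2h, a conjugating enzyme abundant in reticulocytes, averaged 0.75 ± 0.12 at day 15 and -0.11 ± 0.46 at day 0 (0.85 ± 0.20, adjusted p = 0.013), and Fbxo9, a subunit of ubiquitin ligases, changed by 0.85 ± 0.20, adjusted p = 0.013. Ube2h was at -0.0050 with Cy5 alone. The number of higher members was 3 without the day 0 array of mouse 305, 4 without the day 15 array of mouse 320, 5 without either array of mouse 315 and 6 to 9 without any other.

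The antioxidant list was 1 higher and 4 lower of 21, with 4 higher without the day 0 array of mouse 320, 2 without the day 15 array of mouse 305, and 0 without either array of mouse 315 or the day 0 array of mouse 305. Gsr, glutathione reductase, stood at -0.028, -0.090, -0.0086 and -0.033 at day 15 and at 0.78, 0.83, 0.86 and 0.78 at day 0 (-0.85 ± 0.11, adjusted p = 0.0003), which was among the tightest sets of values, and its other probes gave -0.63 and -0.61. Cat, catalase, which red cells hold in bulk, stood at 1.12, 0.90, 1.26 and 1.12 at day 15 and at -0.37, 0.25, 0.045 and 1.10 at day 0 (0.84 ± 0.21, adjusted p = 0.0174), with mouse 320 alike on both days and a value below 0 with the array median.

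The highest genes by rule and Zbtb46 of the dendritic cell list, all below 0 with the array median, were a mixed set. Slc22a8, an organic anion carrier best known from kidney, stood at 0.69, 0.88, 0.83 and 1.08 at day 15 and at -1.05, -0.23, -0.21 and -0.12 at day 0 (1.27 ± 0.18, adjusted p = 0.000513). Aqp2, the water channel of the kidney collecting duct, stood at 0.73, 0.91, 0.92 and 0.94 at day 15 and at -0.94, -0.40, -0.098 and -0.051 at day 0 (1.25 ± 0.17, adjusted p = 0.000513). Zbtb46, a factor known from dendritic cells, stood at 1.63, 1.62, 1.70 and 1.67 at day 15 and at 0.088, 0.46, 0.84 and 0.79 at day 0 (1.11 ± 0.21, adjusted p = 0.00318), with hardly any spread at day 15. Cd300lg, a receptor of vessel walls, changed by 1.12 ± 0.19, adjusted p = 0.00148, and Rhox4e, a homeobox gene of the reproductive tract, by 1.12 ± 0.21, adjusted p = 0.00319. Each of these 5 had 1 probe kept, so no other probe checks it.

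Where another probe existed, it often gave another value. Fbxl19, a ligase subunit that binds CpG islands, changed by 1.22 ± 0.17, adjusted p = 0.000446 with -0.023 at its other probe. Dus1l, a tRNA-modifying enzyme measured in 3 mice on day 0, changed by 1.27 ± 0.21, adjusted p = 0.00171 with -0.063 at its other probe. Marchf2, a membrane-bound ubiquitin ligase, changed by 1.16 ± 0.20, adjusted p = 0.00185 with -0.026 and 0.041 at its 2 others. Ghitm, a protein of the inner mitochondrial membrane, was alike at its 3 probes, with 1.15 ± 0.26, adjusted p = 0.00987 at the brightest and 0.99 and 1.09 at the others. Ube2s, a conjugating enzyme of mitosis, changed by 1.15 ± 0.31, adjusted p = 0.0286 with 1.07 at its other probe, and its call was lost in 4 of the 8 fits that left out 1 array. Over all genes, 511 of those called had several probes, 345 of them had the same sign at every probe, and in 5 another probe passed the threshold in the opposite direction.

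Genes of protein synthesis had more lower than higher calls, which was also so in the brightest class of genes as a whole. Of 29 cytosolic ribosomal protein genes measured, 11 were lower and 2 higher, with a median of -0.23, and by mouse the median was -0.39, -0.35, -0.44 and 0.068. Mouse 320 differed from the others in this. Rps18, of the small subunit and outside that list, stood at -1.20, -0.97, -1.84 and -0.71 at day 15 and at 0.063, 0.36, -0.11 and -0.49 at day 0 (-1.13 ± 0.20, adjusted p = 0.00174), with -0.63 at its other probe. Rps4x changed by -0.88 ± 0.15, adjusted p = 0.00178, but its other probe gave 0.15. The 2 higher members were Rplp0 and Rpl10, outside the rule for names, at 0.67 and 0.55. Ribosomal protein genes have many near-identical processed copies, which these probes may read. The number of lower members was 5 without the day 0 array of mouse 305 or 310 or the day 15 array of mouse 315, 6 without the day 15 array of mouse 305, and 10 to 13 without any other.

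Translation factors were 0 higher and 5 lower of 27, with a median of -0.099, close to the -0.11 of the brightest class of genes. Lower were 3 without the day 0 array of mouse 315 or the day 15 array of mouse 320, and 2 were higher without the day 0 array of mouse 320. Eef1a1, which brings aminoacyl-tRNA to the ribosome, averaged -0.33 ± 0.26 at day 15 and 0.22 ± 0.20 at day 0 (-0.55 ± 0.11, adjusted p = 0.00537), and Eif3e, an initiation factor subunit, changed by -0.45 ± 0.096, adjusted p = 0.00714. Mitochondrial ribosomal protein genes were 0 higher and 2 lower of 26, and 1 was lower without the day 15 array of mouse 310, 315 or 320 or the day 0 array of mouse 305, 310 or 315. DNA replication genes were 0 higher and 3 lower of 18 (1 without the day 0 array of mouse 305 or 315 or the day 15 array of mouse 320), with Mcm4, a helicase subunit, at -0.40 ± 0.082, adjusted p = 0.00546 and Pcna, the polymerase clamp, at -0.28 ± 0.077, adjusted p = 0.0315, and mitotic genes 1 higher and 0 lower of 15. That higher one was Ube2c, which serves the anaphase-promoting complex (0.75 ± 0.21, adjusted p = 0.0361), below 0 with the array median and lost in 7 of the 8 fits that left out 1 array. In its list 3 were higher without the day 0 array of mouse 320 and 0 without any other 1 of the 8 arrays. Splicing kinases and SR proteins were 0 higher and 3 lower of 20, with Clk1 at -0.40 ± 0.099, adjusted p = 0.0161. Of these, 0 were lower without the day 0 array of mouse 310 and 1 without the day 0 array of mouse 305 or the day 15 array of mouse 310, 315 or 320. Proteasome subunits were 1 higher and 3 lower of 26, but 12 were lower without the day 0 array of mouse 320, and 0 were lower without the day 0 array of mouse 305 or 315 or the day 15 array of mouse 315 or 320.

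In the glycolysis, lactate and hypoxia list 6 of 23 were lower and 0 higher, with a median of -0.10. Ddit4, an inhibitor of mTOR that stress and glucocorticoids induce, stood at 0.012, -0.32, 0.019 and -0.012 at day 15 and at 0.85, 1.01, 0.89 and 0.64 at day 0 (-0.92 ± 0.13, adjusted p = 0.00054). Slc16a3, the lactate exporter of glycolytic cells, averaged -0.020 ± 0.073 at day 15 and 0.78 ± 0.23 at day 0 (-0.80 ± 0.13, adjusted p = 0.0014), and Pfkfb4, which sets the rate of glycolysis, changed by -0.53 ± 0.11, adjusted p = 0.00568. None of the 3 overlapped between days. Oxidative phosphorylation genes went both ways, with 2 higher and 5 lower of 28. Without the day 0 array of mouse 320 these were 4 and 8, and without the day 15 array of mouse 305 4 were higher. Higher was 1 without the day 0 array of mouse 305 or 310 or the day 15 array of mouse 315 or 320. Lower were 2 without the day 0 array of mouse 305 and 3 without either array of mouse 315 or the day 15 array of mouse 320. Atp5c1, of the ATP synthase, changed by -0.65 ± 0.12, adjusted p = 0.00239, and Ndufa1, of complex I, by 0.75 ± 0.15, adjusted p = 0.00384 after loess and below 0 with the array median. Heat shock genes were 2 higher and 0 lower of 23. Hsf1, the factor that induces them, changed by 0.69 ± 0.13, adjusted p = 0.00391 with -0.036 and 0.0097 at its other probes, and Hsp90ab1 by 0.37 ± 0.080, adjusted p = 0.00798, both below 0 with the array median.

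Platelet genes did not pass the test, with 0 of 17 called and a median of -0.029. Pf4, a platelet chemokine not measured in mouse 305 on day 0, stood at -1.43, -0.66, -1.11 and -0.30 at day 15 and at -0.17, -0.23 and -0.059 in mice 310, 315 and 320 at day 0 (-0.72 ± 0.24, adjusted p = 0.088). Ppbp, another chemokine of platelets, changed by -0.036 ± 0.23, adjusted p = 0.987. Of 16 genes of liver and hepatoma, 7 were measured, and 0 were called, with a median of 0.028. Alb, albumin, was well above background on none of the 8 arrays, and Afp, alpha-fetoprotein, changed by -0.059 ± 0.062, adjusted p = 0.807. The median level of the 7 measured members lay between 0.014 and 0.051 at day 15 and between -0.056 and 0.046 at day 0. Genes of skin and muscle were 0 of 7 called, and progenitor genes 0 of 5.

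Some genes had a Cy5 signal well above background on every array of 1 day and on none of the other. There were 6 such genes for day 15 and 907 for day 0, and background was lower and the share of such spots smaller at day 15 (37.7% to 38.9% of spots, against 45.8% to 50.5% at day 0). Of the 907, 1 was called: Acod1, which makes itaconate in activated myeloid cells, had a measured change of -0.43 at an adjusted p of 0.0106, with no spot well above background at day 15. Of the 6, 0 were called.

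Set against the mean of the other bleeds after inoculation (days 10, 20 and 25) in the same fit, 144 genes were higher at day 15 (0.95%) and 198 lower (1.31%), together 2.26%. These counts rest on single arrays. Without mouse 315 on day 15 they were 2 and 9, without mouse 320 on that day 19 and 66, without mouse 305 on that day 64 and 85, without mouse 310 on that day 49 for the higher genes, and without mouse 305 on day 0 233 for the higher genes. With the mouse as a block the number of higher genes was 290. With the array median in place of loess both counts were 0.

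Cirbp, a cold-inducible RNA-binding protein, was among the genes lower at day 15 than on the other later days. It averaged 1.08, 0.80, 0.028, 1.16 and 1.19 on days 0, 10, 15, 20 and 25, so day 15 stood apart (-1.02 ± 0.14, adjusted p = 0.00304). Rps18 averaged -0.044, -0.63, -1.18, -0.71 and 0.25 on these days (-0.82 ± 0.16, adjusted p = 0.0145), and Rnase2a, a ribonuclease of eosinophils, 0.93, 1.08, 0.13, 0.71 and 1.02 (-0.81 ± 0.20, adjusted p = 0.0358). The call of Rnase2a at day 15 against day 0 (0.0457) was lost with the mouse as a block, at adjusted p = 0.0533. Igh-VJ558, an immunoglobulin heavy chain variable family whose probes read many copies, averaged 0.59, 0.34, 0.012, 0.74 and 1.31 (-0.79 ± 0.074, adjusted p = 4.5e-05), and its 8 other probes changed by -0.24 to 0.023 at day 15 against day 0. H3f3b, a replication-independent histone, changed by -0.65 ± 0.14, adjusted p = 0.0206.

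**Figure D5:**
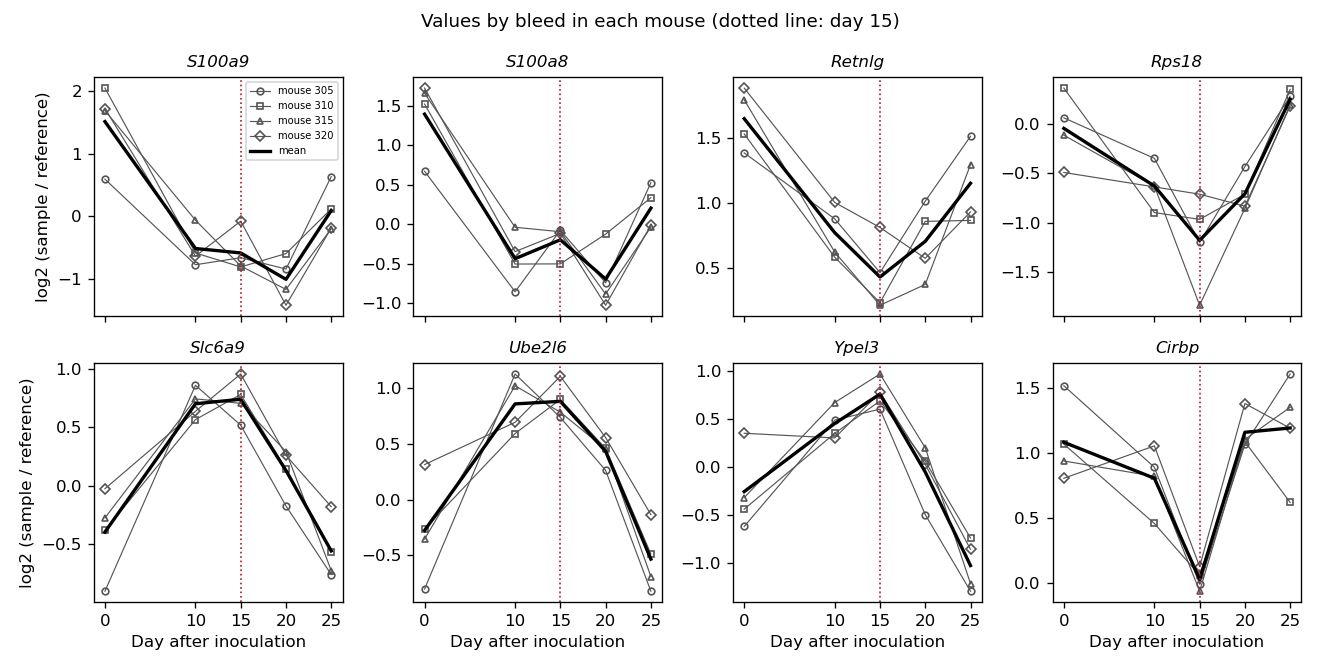
Log2 ratio of sample over reference (vertical axis) by day after inoculation (horizontal axis) for 8 genes, with a thin line for each of 4 mice and a thick line for their mean; the dotted line marks day 15. Cirbp and Rps18 have their lowest mean at day 15 and Slc6a9, Ube2l6 and Ypel3 their highest, while S100a9 is lowest on day 20.

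The genes highest at day 15 against the other bleeds had their highest mean on that day and their lowest on day 25. Ypel3 averaged -0.26, 0.45, 0.76, -0.055 and -1.03 on days 0, 10, 15, 20 and 25 (0.97 ± 0.15, adjusted p = 0.00546), and Slc25a51, the mitochondrial NAD carrier, 0.090, 0.80, 1.02, 0.25 and -0.90 (0.97 ± 0.18, adjusted p = 0.0123). St3gal5, which makes the ganglioside GM3, changed by 0.89 ± 0.15, adjusted p = 0.00707, Serinc1 by 0.89 ± 0.20, adjusted p = 0.0276 and Prxl2a by 0.97 ± 0.22, adjusted p = 0.0269. Prxl2a was not called against day 0 (0.356), and the others of these genes were, with values below 0 against day 0 with the array median. Neutrophil genes did not follow this shape: S100a9 averaged 1.51, -0.51, -0.59, -1.01 and 0.092 over the 5 days, and its difference from the other bleeds did not pass the test (-0.11 ± 0.22, adjusted p = 0.842), nor did that of Adam8 (-0.12 ± 0.11, adjusted p = 0.584).

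Over the genes called, the size of the change differed between mice. The median change over the 395 higher genes was 0.98, 0.70, 0.63 and 0.52 in mice 305, 310, 315 and 320, and over the 777 lower genes it was -0.43, -0.39, -0.46 and -0.28. These medians describe genes chosen by the same contrast and support nothing about it. Mouse 320 had the smallest median in both directions. Leaving out its day 0 array gave 519 higher and 1079 lower genes, and leaving out the day 0 array of mouse 305 gave 221 and 441.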

How the data were processed

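Blood RNA of 4 mice on days 15 and 0 was analysed within 20 two-colour arrays. Dyes were not swapped, so only differences between days are read. The scanner files the authors deposited give intensity: a mean signal and a local background for each dye at each spot; per the file headers, Agilent Feature Extraction 9.1.3.1 wrote them. The deposited series values and the scanner files' log10 ratio of red over green were equal to within 1e-06 for 900360 of 900360 values, with a median of 0 in every column, and served as an alternative only. Any later step of the authors is unknown here.

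In limma 3.58.1 (R 4.3.3, statmod 1.5.0, package data.table at 1.17.8), normexp with an offset of 50 removed the background, and loess, with weight 0 for controls, normalized the dyes within arrays. Probes needed a Cy5 signal well above background on 4 or more of 20 arrays and a value on 3 or more arrays of every day, which left 20910 of 41174 probes. The brightest probe stood for each of 15155 genes. Names came from RefSeq (GRCm38.p6), with 56.8% of probes matched by accession, 16.4% by symbol, 7.09% by synonym, and 19.8% keeping the file's name. Log2 ratios of all 20 arrays entered 1 limma fit of 5 day means, with Benjamini-Hochberg adjustment over all genes. P-values measure the spread between arrays of the same day, pooled over the 5 days. The arrays of 1 mouse were treated as independent, and no spread between slides enters. The fit was tested on simulated data with independent noise and no slide, mouse or brightness effect, so that test says nothing of those. The precision is limited by the number of arrays.

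The mouse numbers pair the samples, since the same animals were bled; deviations of 1 mouse on days 15 and 0 correlated across genes at 0.541, 0.0065, 0.222 and 0.301. Lists and members were chosen with earlier results of these data known. Genes were named by rule: the 12 highest and 12 lowest called with the same sign in every mouse and a gene symbol (no accession such as BC089618, Riken clone or predicted gene), up to 3 called members of each list, 16 fixed markers, and the 6 highest and 6 lowest of day 15 against the other later bleeds. Of the fixed markers Ly6g was not on the array by name and Alas2 was not kept; some of the genes the rule takes are given only in list counts or are not reported here. Promoter sequences are RefSeq's (GRCm38.p6), found for 10136 of the 15155 genes. Alternatives were the normalization, the background, the filter on dim probes, the arrays fitted, the mouse as a block and leaving out each array; the slide could not be fitted, since each day had its own.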

Additional observations from a re-analysis of the deposited data

Results flagged for a closer look

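Of the genes named, 104 were checked on days 15 and 0 for 1 mouse whose gap to the nearest other mouse, as a share of the range of the 4, was over Dixon's limit. Of 202 such sets of values, 13 were beyond it, and chance gives about 1 in 20. At day 15, mouse 310 was the lowest in S100a8 (-0.50, the others -0.12 to -0.078), Cd300lf (-0.21, the others -0.0091 to 0.0045), Mmp8 (-0.13, the others -0.0093 to 0.0031), Ddit4 (-0.32, the others -0.012 to 0.019) and Dusp1 (-0.53, the others 0.013 to 0.084), and the highest in Cd3e (0.51, the others 0.10 to 0.17). Mouse 320 was the lowest at day 15 in Stat5b (-0.28, the others -0.12 to -0.10) and Il7r (-0.36, the others -0.17 to -0.14). Mouse 315 was the lowest in Ier5 (-0.96, the others -0.68 to -0.63) and the highest in Ube2h (0.92, the others 0.66 to 0.70), and mouse 305 was the lowest in Aqp2 (0.73, the others 0.91 to 0.94), all at day 15. At day 0, mouse 305 was the lowest in Slc22a8 (-1.05, the others -0.23 to -0.12) and mouse 320 in H3f3b (-0.31, the others 0.44 to 0.52).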

How the results depend on the processing

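With the mouse as a replicate block, 534 genes were higher and 856 lower at day 15 than at day 0, and 290 higher and 266 lower than on the other later days; of the calls named, only that of Rnase2a was lost. Leaving out any 1 array gave 221 to 519 higher and 431 to 1079 lower genes against day 0, and 2 to 233 higher and 9 to 296 lower against the other later days. Counts for day 15 against day 0 (higher, lower) and then against the other later days (higher, lower) were 0, 9, 0 and 0 with the array median over all spots, 44, 2586, 0 and 0 with the array median over the genes kept, 2419, 2639, 2290 and 1309 with scaling between arrays, 3101, 4173, 2949 and 3283 with Cy5 alone, 2820, 3595, 2134 and 1480 with no background correction, and 2671, 4234, 2534 and 2559 with the scanner's log ratio. Higher calls were 33.7% of calls against day 0 after loess and 0%, 1.67%, 47.8%, 42.6%, 44.0% and 38.7% in these 6. With negative control spots as the background, added after seeing the data, 1511 genes were higher and 1877 lower than on day 0, and 477 higher and 140 lower than on the other later days. Without the filter on dim probes 77 genes were higher and 129 lower than on the other later days. A fit of only the 8 arrays gave 296 higher and 441 lower than day 0, and it kept 574 of the 1172 calls. An offset of 10 gave 369 and 577, and probes well above background on all 8 arrays 433 and 862. The causes were not tested. The slide could not be fitted.

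With the array median over all spots, these changes were below 0: Slc22a8 -0.12, Dus1l -0.80, Aqp2 -0.18, Fbxl19 -0.21, Hbb-y -0.20, Marchf2 -0.31, Ube2l6 -0.34, Ghitm -0.36, Ube2s -0.11, Slc6a9 -0.30, Cd300lg -0.21, Rhox4e -0.10, Cd24a -0.61, Bcl2l1 -0.65, Tlr9 -0.77, Cat -0.63, Gabarapl2 -0.42, Map1lc3b -0.64, Zbtb46 -0.19, Tspo2 -0.50, Epb41 -0.68, Hsf1 -0.77, Hsp90ab1 -1.04, Blvrb -0.71, Ppox -0.64, Klf2 -0.68, Isg15 -0.38, Iscu -0.42, Ftl1 -0.74, Glrx5 -0.31, Ube2c -0.64, Ndufa1 -0.70, Oaz1 -0.67, Smox -0.33, Ube2h -0.62, Fbxo9 -0.61, Slc25a51 -0.44, Ypel3 -0.36, Serinc1 -0.56, St3gal5 -0.55. With the median over the genes kept, so were Dus1l -0.30, Cd24a -0.24, Bcl2l1 -0.28, Tlr9 -0.40, Cat -0.26, Gabarapl2 -0.058, Map1lc3b -0.27, Tspo2 -0.13, Epb41 -0.31, Hsf1 -0.41, Hsp90ab1 -0.68, Blvrb -0.34, Ppox -0.27, Klf2 -0.32, Isg15 -0.012, Iscu -0.058, Ftl1 -0.38, Glrx5 -0.16, Ube2c -0.27, Ndufa1 -0.33, Oaz1 -0.29, Ube2h -0.25, Fbxo9 -0.25, Slc25a51 -0.080, Serinc1 -0.19, St3gal5 -0.19. With Cy5 alone, so were Oaz1 -0.037, Ube2h -0.0050. Calls lost without at least 1 array were those of Adgre1, Bcl2l1, Blnk, Blvrb, Cat, Cd24a, Cd8b1, Chil3, Clk1, Dusp1, Epb41, Fbxo9, Ftl1, Glrx5, H2-K1, Ifitm1, Isg15, Klf2, Lrg1, Myd88, Pcna, Ppox, Rnase2a, Serinc1, Slc25a51, Tyrobp, Ube2c, Ube2h, Ube2s. Dim genes gave few calls, and whether signal over background was the cause was not tested.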
